A study of Caenorhabditis elegans with 57 samples.

Results

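The 300 genes described here had the most H3K27me3 in germlines of *him-8* males, the stand-in for wild-type fathers in this *C. elegans* study. They were chosen by the highest mean deposited z-score (a level scaled within each library) over the 2 *him-8* H3K27me3 libraries, out of 20255 genes with a z-score and a unique name. Their mean z-scores ran from 0.841 to 2.56 with a median of 0.952, against a median of 0.431 over all genes. These father values chose the genes and are given as a description only.

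Chromatin and RNA were measured in fathers, offspring and grandoffspring of crosses between Bristol N2 males and females of the Hawaiian background CB4856. The *him-8* males carried *him-8(e1489)*, and the *mes-3* fathers also carried *mes-3(bn35)* and came from mothers with that allele over *hT2-GFP*, so they had a maternal but no zygotic supply (M+Z-). In the first cross, *fem-2(b245ts)* mothers were mated with *him-8(e1489)* fathers that were homozygous for *mes-3(bn35)* (offspring M+P-) or carried it over *hT2-GFP* (offspring M+P+). Offspring of both histories were heterozygous for all 3 mutations, *mes-3(bn35)*, that of *fem-2*, and *him-8(e1489)*. Fathers of the second cross carried *fem-2(b245ts)* and a tagged *glh-1* (GFP and 3xflag), and were homozygous for *mes-3(bn199)* or carried it over *hT2-GFP*. The mothers were again *fem-2(b245ts)* females of CB4856, and the F1 offspring were *fem-2(b245ts)* and heterozygous for *mes-3(bn199)* and the tag. The F2 grandoffspring (GM+GP-) had the same genotype, a mother of that genotype and no father in the labels. The fathers' germlines had 3 RNA libraries per genotype. First-cross hermaphrodite germlines had 2, male germlines 4 and L1 larvae 3 per history, and second-cross F1 and F2 germlines had 3 each. Each H3K27me3 or H3K36me3 group had 2 CUT&RUN libraries, from *him-8* males and from hermaphrodites of both crosses. Germline samples held tissue distal to the gonad bend of day 1 adults, 30 to 50 germlines per RNA sample, and L1 samples held about 100 larvae. Chromatin of *mes-3* fathers was not analysed here, and in RNA of whole dissected tissue fewer cells of a type and less RNA per cell cannot be told apart.

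H3K27me3 is written by PRC2, whose worm subunits are MES-2, MES-6 and MES-3, and marks genes kept silent. In the worm germline it covers much of the X chromosome and autosomal genes that germ cells do not transcribe. H3K36me3, written by MES-4 and MET-1, covers genes that are or were transcribed in germ cells, and the marks occupy largely separate domains.

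The H3K27me3 libraries of the fathers were shallow, with 2797547 and 4606666 counts in genes against 10311833 to 25714782 in the offspring. A member had a median of 52 counts in the first *him-8* library and 88 in the second. The top 300 genes of each library taken alone shared only 101 genes, and 180 and 200 of the members were in the top 300 of the first and second library. The median absolute difference of a member's z-score between the libraries was 0.18. The last genes inside the cut were *Y75B7B.2* (0.8411), *Y32G9A.2* (0.841) and *sdz-36* (0.8408). Just outside it lay *fipr-27* (0.8408), *M163.9* (0.8402) and *F26F2.11* (0.8402), so the edge of the set lies well within the difference between the libraries. RNA libraries held 5706650 to 19191934 counts. The summed level of 8 germline markers was 4716 to 11370 CPM (a library's counts scaled to a common total of 1000000) in all germline libraries and 97.3 to 136 CPM in larvae. *mes-3* RNA stood at 38.8 to 46.5 CPM in *him-8* fathers and 20.4 to 41.9 CPM in *mes-3* fathers, which were not called different (log2 fold change -0.42 ± 0.23 SE, edgeR adjusted p = 0.332), so the level of its RNA does not check the genotype. None of the 5 genes *mes-2*, *mes-3*, *mes-6*, *mes-4* and *met-1* passed the test in any of the 6 RNA comparisons.

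The highest father z-scores belonged to *puf-4* (2.57 and 2.55 in the 2 libraries), annotated as a pseudogene and named for the PUF family of RNA-binding proteins. *Y81B9A.2*, X-linked, had 2.46 and 2.36. The chemoreceptor gene *str-222* had 2.06 and 2.33, *ZC178.1* 2.08 and 1.98, *pot-3* 1.76 and 1.93 and the X-linked *H03A11.2* 1.81 and 1.58. *pot-3* is named as a relative of the telomere-binding protein POT1.

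Of the 300 members, 280 matched the RefSeq annotation by name. Of these, 251 were protein coding (89.6%, against 96.5% of all matched genes) and 26 were pseudogenes (9.29% against 3.35%). Chromosome IV held 77 of the 280 (27.5% against 16.3% of all genes), chromosome X 69 (24.6% against 13.7%) and chromosome V 66 (23.6% against 25.2%). Chromosomes III, II and I held 28, 27 and 13. No gene of the homeodomain, ion channel, cell adhesion, neurotransmitter receptor or spermatogenesis lists was a member. Of 1330 listed chemoreceptor genes, 7 were members (2.33% of the members, where the list holds 6.57% of all genes). The other listed groups included 9 F-box genes of the fbxa type (3% of the members against 1.75% of all genes), 5 peptide genes (1.67% against 0.76%: *flp-20*, *flp-23*, the nematocin gene *ntc-1*, and the insulin-like *ins-14* and *ins-16*), the developmental regulators *hlh-15*, *end-3* and *tbx-39*, and the nuclear hormone receptors *nhr-80* and *nhr-249*. The collagens *col-174* and *col-133*, the C-type lectin *clec-223* and *ver-1* completed the listed genes. Of all members, 217 (72.3%, against 44% of all genes) had only a clone name and no gene-class name.

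Members also lay next to each other. Among the 280 placed on the RefSeq gene order, 72 fell into 23 runs of adjacent members, while among the next 300 genes by rank, 289 of them placed, 32 fell into 15 runs. The longest run, 11 genes on chromosome V, held 7 genes of the *nspa* family (nematode-specific peptides, group A) with *ZC412.8*, *ZC412.9*, *H12D21.2* and *H12D21.3*. A run of 7 on chromosome III held the claudin-like *clc-30* with 4 *ZC262* and 2 *R05D3* genes. On the X, *fbxa-40*, *rgs-8.2*, *fbxa-41*, *rgs-8.1* and *fbxa-17* formed a run of 5, alternating F-box genes with regulators of G-protein signalling. On chromosome V, *pals-32*, *str-46*, *gtnt-12* and *zmp-3* formed a run of 4, as did *F16H6.7*, *F16H6.11*, *F16H6.8* and *F16H6.9*. These gene groups were noticed after the members were known. The *nspa* genes are close copies, so reads shared among them make their separate counts uncertain.

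In hermaphrodite germlines of every history the typical member had more H3K27me3 than the typical gene. The median member z-score was 0.66 to 0.845 in the 10 hermaphrodite H3K27me3 libraries, where the median of all genes was 0.325 to 0.524. Of the members, 107 to 184 (35.7% to 61.3%) lay above the 90th percentile of all genes in each of these libraries. In all 10 libraries 50 members did so, and 101 genes in all. Among them were *puf-4*, *Y81B9A.2*, *str-222*, *H03A11.2*, all 8 *nspa* members, *ZC262.5*, *clc-30*, *srg-46*, *fbxa-17* and the ETS-family gene *elk-2*. Comparisons of z-scores between male and hermaphrodite libraries also differ in strain background, since the fathers were pure Bristol and the offspring hybrid.

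**Figure D1:**
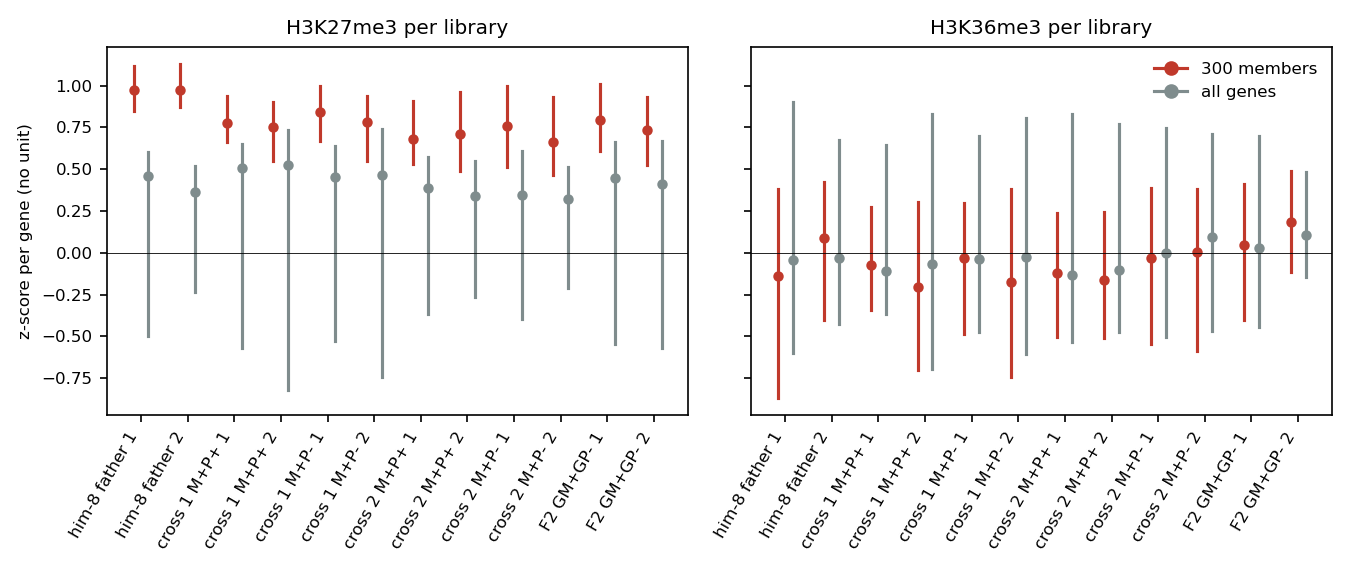
Deposited z-scores (no unit) of H3K27me3 (left) and H3K36me3 (right) in each CUT&RUN library, as median (point) and interquartile range (line) for the 300 members (red) and all genes (grey). The member medians for H3K27me3 lie between 0.66 and 0.976 in all 12 libraries, above all-gene medians of 0.325 to 0.524, while the H3K36me3 medians of both sets lie near 0.

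A few members were not rich in the mark in hermaphrodites. *F16H6.6*, *F16H6.7*, *F16H6.8*, *F16H6.9* and *F16H6.11* on chromosome V, with *Y94A7B.11*, *F09C6.14*, *T21C12.8* and *fbxa-112*, lay below the median of all genes in all 10 hermaphrodite libraries. In the fathers *F16H6.8* had z-scores of 1.13 and 0.89, and *F16H6.9* 1.04 and 0.98. In hermaphrodites *F16H6.8* ranged from -0.37 to 0.18 and *F16H6.9* from -0.0044 to 0.451. This gene group was chosen after its values were seen. *zmp-3*, a zinc metalloprotease gene, had 1.7 and 1.61 in fathers and 0.429 to 0.617 in hermaphrodites. *pot-3* ranged from -0.313 to 0.973 in hermaphrodites, against 1.76 and 1.93 in the fathers.

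High H3K36me3 was rare over the members, while their median lay near that of all genes. Their median z-score was -0.138 and 0.0882 in the *him-8* libraries and -0.203 to 0.185 in the hermaphrodites, where all genes had -0.13 to 0.106. Above the 90th percentile of all genes for H3K36me3 there were 1 to 6 members (0.333% to 2%) in every library but the second F2 library, which had 33 (11%). The upper quartile of the members was 0.382 and 0.425 in the fathers, where that of all genes was 0.904 and 0.676. X-linked members lay lower than autosomal ones, with medians of -1.94 and -0.25 against 0.0924 and 0.18 in the fathers. As exceptions with both marks, 18 and 36 members lay above the 75th percentile of H3K36me3 in the first and second father library, and 13 in both. The share of all genes above it in both is not given. *pot-3* had H3K36me3 z-scores of 1.49 and 1.43 in fathers and 1.48 to 1.81 in hermaphrodites, *puf-4* 1.11 and 1.48 in fathers, and *ZC262.5*, *ZC262.1*, *ZC262.7* and *R05D3.5* 1.03 to 1.4 in fathers. The father H3K36me3 libraries gave a member a median of 5 and 25.5 counts, so single values there are coarse.

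Most members gave little RNA in any germline. In the 3 *him-8* RNA libraries, 150 of the 300 (50%) had no count at all, against 31.2% of all genes. In the 33 libraries 16 members had no count (5.33%, against 1.42% of all genes). Among them were *Y81B9A.2*, *nspa-9*, *fipr-15* and the BH3-only cell-death gene *ced-13*. The authors' RPKM group values nevertheless gave *Y81B9A.2* 0.115 and 0.274 in first-cross M+P- and M+P+ hermaphrodites and 0.155 in second-cross M+P+. They gave *fipr-15* 1.28 in M+P- larvae. Hermaphrodite germlines other than M+P- replicate 3 of the second cross had 26 to 36 members above 1 CPM (8.67% to 12% of the 300, against 36.9% to 41% of all genes). Males had more, with 68 to 72 members in *him-8* fathers and 79 to 89 in *mes-3* fathers, where all genes above 1 CPM were 38.6% to 41.6% and 44% to 50.3%. In L1 larvae 70 to 89 members exceeded 1 CPM, where 60.6% to 66.4% of all genes did.

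Some members were abundant in male germlines although H3K27me3 there was high. In all 3 *him-8* libraries 29 members exceeded 10 CPM, and the share of all genes that did so is not given. *nsph-3.1*, another nematode-specific peptide gene, gave 556, 609 and 972 CPM in *him-8* fathers and 654, 899 and 926 CPM in *mes-3* fathers. In first-cross hermaphrodites the same gene stayed at 0.414 to 0.508 CPM, so the sexes did not overlap. Its father H3K27me3 z-scores were 1.58 and 1.43, and those of hermaphrodites 1.16 to 1.51. *F53B6.4* gave 222 to 537 CPM in *him-8* fathers and 1.35 to 2.65 CPM in first-cross hermaphrodites, *C45G9.4* 111 to 146 CPM and 0 to 0.254 CPM, and *Y43F8C.5* 91 to 139 CPM and 0.0828 to 0.298 CPM. None of these 4 passed the unblocked edgeR test between the 2 groups of fathers or between male M+P- and M+P+ germlines. The *nspa* genes reached 89.5 CPM in *him-8* fathers and at most 0.242 CPM in any hermaphrodite library.

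In fathers that lacked zygotic *mes-3*, 6 of the 73 members with enough counts to test rose and none fell (edgeR quasi-likelihood test without a replicate block, Benjamini-Hochberg adjusted p under 0.05 over all genes). Over all 8873 genes tested, 7.01% rose and 1.32% fell, 8.33% in all, so the members' 8.22% in this fit was close to its background. The median log2 fold change was 0.21 over the members tested and 0.03 over all genes. Passing the filter on low counts required RNA in at least one group, so the 73 are not a sample of all 300.

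*Y9D1A.1*, annotated as a long non-coding RNA on chromosome II, had the smallest p. It gave 6.06, 5.5 and 4.56 CPM in *him-8* fathers and 109, 113 and 114 CPM in *mes-3* fathers (log2 fold change 4.33 ± 0.12 SE, edgeR adjusted p = 1.3e-05). *C08F11.7* on chromosome IV gave 9.59, 5.78 and 6.99 CPM against 30.9, 34.9 and 35.5 CPM (2.14 ± 0.20, adjusted p = 0.000988). In both genes every *mes-3* library stood above every *him-8* library. *F16H6.9*, of the chromosome V group with little of the mark in hermaphrodites, gave 0, 0.141 and 0.152 CPM in *him-8* and 5.09, 7.71 and 12.1 CPM in *mes-3* fathers (6.15 ± 0.75, edgeR adjusted p = 0.00356). Its neighbour *F16H6.8* had 0.141 to 0.423 CPM and 0.358 to 1.44 CPM and was not tested.

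*F59A7.12* gave 0.141, 0.141 and 0.152 CPM in *him-8* and 3.26, 2.63 and 2.27 CPM in *mes-3* fathers (4.03 ± 0.58, edgeR adjusted p = 0.00688). *ZC178.1*, among the 6 genes with the highest father H3K27me3, gave 0.282, 0 and 0.152 CPM against 5.61, 3.33 and 2.99 CPM (4.59 ± 0.76, adjusted p = 0.0121). *F55B11.6* gave 0.846, 1.13 and 1.06 CPM against 3.92, 4.38 and 4.3 CPM (1.98 ± 0.42, adjusted p = 0.0287). Groups did not overlap for any of the 3, yet each lost its call without some libraries. Without *him-8* replicate 2, or without *mes-3* replicate 2, 3 members were called, *F59A7.12* and *ZC178.1* among the losses (highest adjusted p = 0.0784), and *F55B11.6* lost its call in all 6 fits that left out 1 library. The summed level of 6 somatic gonad and sheath markers was also higher in *mes-3* fathers, 13.6 to 18.8 CPM against 0.847 to 2.68 CPM, with 1 to 4 of the markers at 0 in *mes-3* and 2 to 4 in *him-8* libraries. Neuronal markers (9 genes) summed to 107 to 143 against 84.1 to 95.5 CPM, while the intestine and muscle sums of the groups overlapped. Pharynx markers summed to 0 to 0.876 CPM in all 6 libraries. The part of somatic cells in these results was not tested.

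**Figure D2:**
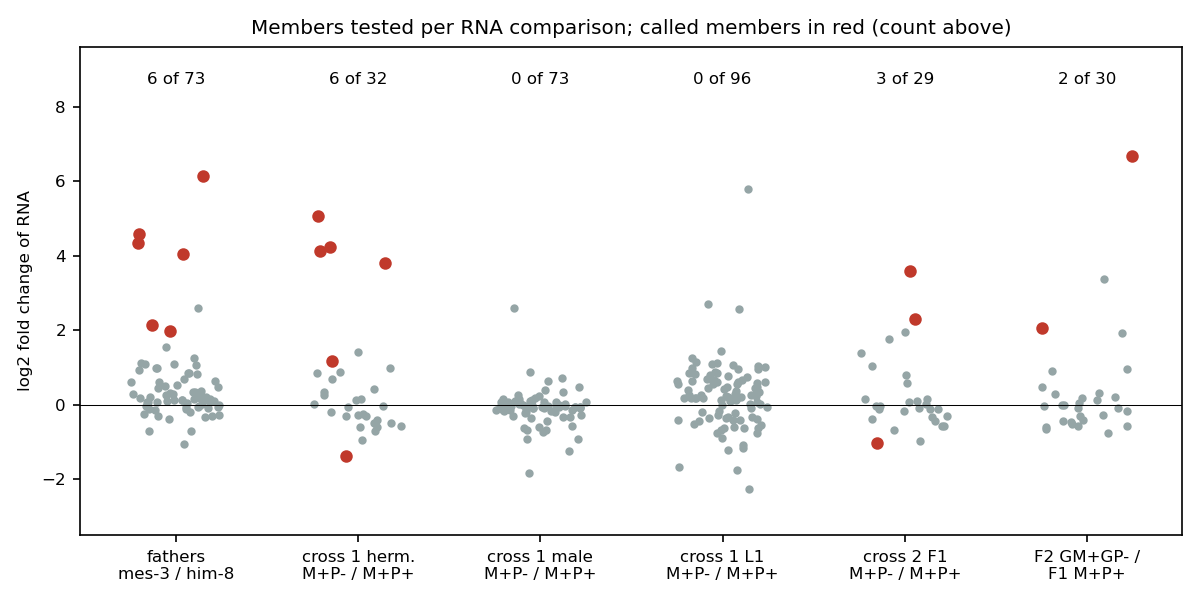
RNA log2 fold changes (vertical axis) of the members with enough counts to test in each of 6 comparisons (horizontal axis). Red points are members called at an edgeR adjusted p under 0.05, and the number above each column gives the called and the tested. Calls were made in 4 comparisons, with 6 of 73, 6 of 32, 3 of 29 and 2 of 30 members, and none in male germlines and L1 larvae. The highest F2 point, *ZK354.8*, is a fitted value against a control group without counts.

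In hermaphrodite germlines of the first cross, 5 of 32 tested members rose in M+P- and 1 fell. Over 8409 genes tested 5.11% rose and 4.63% fell, 9.74% in all, against 18.8% of the members. The median log2 fold change of the members was -0.01 and that of all genes 0.01. Passing the filter on low counts again required RNA in at least 1 group, so the 32 are not a sample of all members. *F59A7.12*, *ZK354.8*, *ZC178.1* and *ZC178.2* passed on their M+P- libraries, where they were high. The 18.8% is therefore a description only. The calls rest on few members with low counts, and DESeq2 called 4, its share over all genes not being given.

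*F59A7.12* was at 0.339 and 0.223 CPM in M+P+ and at 4.71 and 3.395 CPM in M+P- (log2 fold change 3.81 ± 0.50 SE, edgeR adjusted p = 0.00043). *ZK354.8*, which is abundant in male germlines, had 0 and 0.149 CPM in M+P+ and 2.35 and 3.56 CPM in M+P- (5.05 ± 0.72, adjusted p = 0.00067). Both calls held in all 8 alternative fits. *ZC178.1* was at 1.02 and 0.0744 CPM in M+P+ and at 6.16 and 12.1 CPM in M+P- (4.11 ± 0.59, edgeR adjusted p = 0.000734). *ZC178.2* on chromosome V was at 0.0846 and 0.0744 CPM against 1.27 and 2.07 CPM (4.23 ± 0.70, adjusted p = 0.00171). *ZC178.1* lost its call under DESeq2 (adjusted p = 0.0528), and *ZC178.2* without M+P+ replicate 1 or 2 (highest edgeR adjusted p = 0.0566). In all 4 genes both M+P- libraries lay above both M+P+ libraries, which is a description only, since called members without overlap were chosen for naming. *C08F11.7* was at 1.95 and 2.6 CPM against 5.07 and 5.3 CPM (1.17 ± 0.33, edgeR adjusted p = 0.0434), and lost its call when any single library was left out.

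The 1 member that fell was the X-linked *W06D11.3*, from 21.6 and 20 CPM in M+P+ to 7.42 and 8.53 CPM in M+P- (-1.38 ± 0.20, edgeR adjusted p = 0.000712), a call that held in all 8 alternative fits. In this cross too the M+P- libraries had more RNA of 10 muscle markers (59.8 and 61.6 CPM against 30.2 and 32.6 CPM, 1 marker at 0 in each library) and of the 6 somatic gonad markers (9.27 and 13.8 CPM against 4.99 and 5.21 CPM). Intestine markers (8 genes) summed to 68.8 and 194 CPM in M+P- and 29.1 and 41.4 CPM in M+P+, and oocyte markers (6 genes) to 9188 and 9309 against 11740 and 10790 CPM. The part of these differences in the members' RNA was not tested. Pharynx markers summed to at most 0.331 CPM. Neuron markers summed to 164 and 182 CPM in M+P- and 167 and 153 CPM in M+P+. Hypodermis markers gave 123 and 120 against 118 and 122 CPM, so for both sets the groups overlapped.

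**Figure D3:**
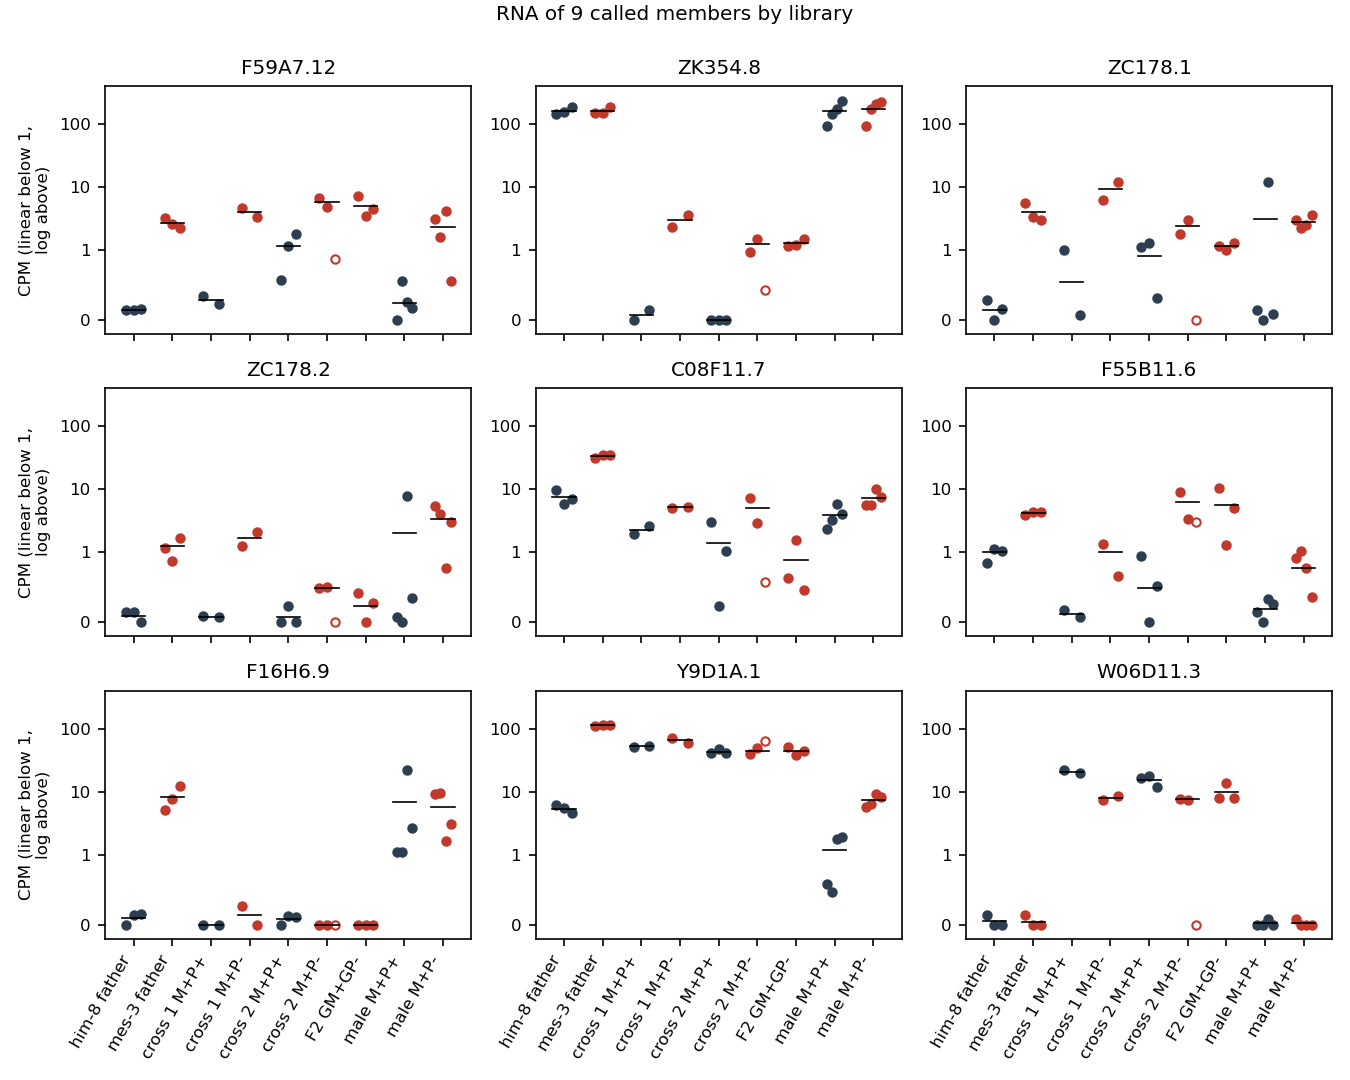
RNA level of the 9 members called in at least 1 RNA comparison, in CPM (linear below 1, logarithmic above), by library. Red points are *mes-3* fathers and germlines of M+P- or GM+GP- history, dark points the controls, lines the group means. The open circle is M+P- replicate 3 of the second cross, which is outside the mean. *F59A7.12* lies at 0.141 to 0.152 CPM in *him-8* and 2.27 to 3.26 CPM in *mes-3* fathers, and *ZK354.8* at 92 to 234 CPM in all male offspring libraries.

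The second cross gave fewer calls. M+P- replicate 3 held counts over only part of the genome (42 members with any count, against 81 to 106 in the other 5 F1 libraries) and was left out. With the remaining 2 M+P- and 3 M+P+ libraries, 2 of 29 tested members rose and 1 fell, against 2.19% and 0.973% (3.16% in all) of 8326 genes. The filter on low counts required RNA in at least 1 group here too, so the 29 are not a sample of all members. *F59A7.12* was at 0.564, 1.17 and 1.77 CPM in M+P+ and at 6.78 and 4.86 CPM in M+P- (2.31 ± 0.45 SE, edgeR adjusted p = 0.0278). *F55B11.6* was at 0.941, 0 and 0.52 CPM against 9.2 and 3.36 CPM (3.58 ± 0.74, adjusted p = 0.0342). *W06D11.3* was at 16.4, 17.4 and 11.9 CPM against 7.62 and 7.47 CPM (-1.02 ± 0.22, adjusted p = 0.0398). Groups did not overlap in these 3 genes. The left-out library had 0.866 CPM of *F59A7.12*, 3.03 of *F55B11.6* and 0 of *W06D11.3*. Muscle markers summed to 91.9 and 130 CPM in the 2 M+P- and 40.5 to 72 CPM in the M+P+ libraries, and somatic gonad markers to 11.4 and 11 against 4.47 to 5.46 CPM. Intestine markers summed to 1354 and 2382 CPM in M+P- and to 503, 1169 and 289 CPM in M+P+, and oocyte markers to 10190 and 10380 against 10420 to 11180 CPM. The part of these markers was not tested. With all 6 libraries no member was called, and none was called without M+P+ replicate 3 or without M+P- replicate 1. Leaving out M+P+ replicate 1 gave 1 call, as did leaving out M+P- replicate 2, and leaving out M+P+ replicate 2 gave 5.

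Compared with the same M+P+ F1 libraries, germlines of F2 grandoffspring had 2 members higher and none lower among 30 tested, against 2.54% and 0.663% (3.21% in all) of 8296 genes. This comparison shares its control libraries with that of the second-cross F1. Its 30 tested members are those with RNA in at least 1 group, and *ZK354.8* passed that filter through its F2 libraries alone. *ZK354.8* had no count in any of the 3 M+P+ libraries and 1.16, 1.2 and 1.48 CPM in the F2, which is at least 12.3-fold higher when the control is set at 3 counts over the group (edgeR adjusted p = 0.00597). The call held in all 10 alternative fits. *F59A7.12* was at 7.14, 3.41 and 4.44 CPM in the F2, above all 3 M+P+ libraries (2.07 ± 0.43 SE, edgeR adjusted p = 0.0244), but lost its call when M+P+ replicate 1 or 2, or F2 replicate 1 or 3, was left out. Without F2 replicate 2, 4 members were called, and without M+P+ replicate 1, or F2 replicate 1 or 3, only 1. F1 and F2 libraries with the same number deviated together. With the replicate number as a block 7 members were called, 5 higher (*F59A7.12*, *ZK354.8*, *F55B11.6*, *C55C3.6*, *F46F2.3*) and 2 lower (*W06D11.3*, *H11L12.1*). The share over all genes in the blocked fit is not given, so these 7 cannot be set against a background. Muscle markers summed to 101 to 106 CPM in the F2 and 40.5 to 72 CPM in M+P+ F1, and somatic gonad markers to 9.21 to 11.8 and 4.47 to 5.46 CPM. Neuron markers summed to 194 to 197 CPM in the F2 and 161 to 175 CPM in M+P+ F1. Intestine markers overlapped, with 581, 1381 and 634.5 CPM in the F2 and 503, 1169 and 289 CPM in M+P+ F1. The part of these markers in the results was not tested.

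Across the 6 RNA comparisons 9 members were called at least once, 6 of them in 2 or more, and *F59A7.12* in 4. *F59A7.12* was the only member to pass the test in 3 or more. It is a chromosome V gene known by its clone name.

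No member was called in male germlines or in L1 larvae. In males, 73 members were tested with edgeR, 4 had an unadjusted p under 0.05, and DESeq2 called 2. Over 9189 genes edgeR called 0.49%, and the DESeq2 share over all genes is not given. M+P+ replicate 3 stood apart, with 171 members having counts against 121 to 124 in the other M+P+ males, and with 2814 CPM of muscle markers against 20.5 to 26.2 CPM. Somatic gonad markers summed to 6.7 to 9.08 CPM in M+P- males and to 1.74 to 1.98 CPM in M+P+ males other than replicate 3, which had 14.3 CPM. The part of these markers was not tested. The 3 members with the smallest p were *pot-3*, *Y9D1A.1* and *puf-4*. *pot-3* had 27.5, 24.2, 21.2 and 22.3 CPM in M+P+ and 15.1, 15.5, 15.5 and 12 CPM in M+P- (-0.74 ± 0.13 SE, edgeR adjusted p = 0.0751). *Y9D1A.1* had 0.58, 0.472, 1.78 and 1.89 CPM against 5.69, 6.38, 9.24 and 8.26 CPM (2.60 ± 0.54, edgeR adjusted p = 0.144). In these 2 genes the groups did not overlap. *puf-4* had 1.36 to 1.89 CPM against 2.67 to 3.23 CPM (0.71 ± 0.25, edgeR adjusted p = 0.683). Without M+P+ replicate 3, 2 members passed, *pot-3* lower (-0.79, adjusted p = 0.0414) and *ZC178.1* higher (4.98, adjusted p = 0.0137).

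In L1 larvae, 96 members were tested with edgeR, 6 had an unadjusted p under 0.05 and DESeq2 called 2. Over 14618 genes edgeR called 0.00684%, and the DESeq2 share over all genes is not given. *ZC247.1* had the smallest p, with 616, 554 and 504 CPM in M+P+ and 312, 356 and 299 CPM in M+P- (-0.91 ± 0.15 SE, edgeR adjusted p = 0.21). *C08E8.9* had 0, 0 and 0.0525 CPM against 1.45, 1.67 and 1.3 CPM (edgeR adjusted p = 0.503), and *Y2C2A.1* 117, 89.9 and 132 CPM against 74.1, 93.8 and 70.2 CPM (-0.63 ± 0.20, adjusted p = 0.533). Groups did not overlap for *ZC247.1* and *C08E8.9*.

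Of the members on the gene lists, few had enough RNA to test. F-box members entered 4 of the tests over the 6 RNA comparisons, peptide and nuclear hormone receptor members 3 each, C-type lectins 3, collagens 2, chemoreceptors 1 and developmental regulators 1. None was called.

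Calls in total H3K27me3 between paternal histories depended on the fit. With the replicate number as a block, members were called in both crosses, with counts given under the processing. In the first cross they included *ZC178.1* and *ZK354.8*, lower, and *pot-3*, higher. Same-numbered first-cross libraries deviated together (correlation 0.758), but no label pairs them. The share over all features in the blocked fit is not given. Without a replicate block, no member was called different in either cross. In the first cross none of 300 members was called by edgeR or DESeq2, 1 had an unadjusted p under 0.05, and the rate over all 29121 features was 0%. In the second cross none was called by either tool, 4 had an unadjusted p under 0.05, and the rate over 29099 features was 0%. Median log2 fold changes of the members were -0.01 and 0.04 in the 2 crosses. In the first cross the smallest p of that fit belonged to *ZC178.1* (-0.46 ± 0.15 SE, edgeR adjusted p = 1) and *ZK354.8* (-0.50 ± 0.22, adjusted p = 1), both also called in RNA in that cross, and to *F53B6.4* (-0.49 ± 0.22, adjusted p = 1). In the second it was *pot-3* (0.59 ± 0.17, edgeR adjusted p = 0.9996), *F10D11.3* (-0.61 ± 0.24) and *K01A12.4* (0.57 ± 0.24), these with the same adjusted p. *pot-3* was called without first-cross M+P+ replicate 1 (1.67, edgeR adjusted p = 0.0459) and without second-cross M+P- replicate 1 (0.775, adjusted p = 0.0214).

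In the F2 against second-cross M+P+ F1 germlines, 8 of 300 members had higher H3K27me3 and 2 lower (3.33%), against 0.65% higher and 9.91% lower (10.6% in all) of 29073 features. The median log2 fold change was 0.14 over the members and 0.03 over all features. *ZC247.1* had 1002 and 916 CPM in M+P+ and 1187 and 1293 CPM in the F2 (0.37 ± 0.06 SE, edgeR adjusted p = 0.000843), and kept its call in all 8 alternative fits. *F16H6.8* had 23.8 and 24 CPM against 36.5 and 37.7 CPM (0.63 ± 0.17, adjusted p = 0.0165). *H03A11.2* had 332 and 287 CPM against 392.4 and 382.6 CPM (0.32 ± 0.08, edgeR adjusted p = 0.0151). In these 3 genes both F2 libraries lay above both F1 libraries. *F36A2.12* fell from 9.05 and 8.44 CPM to 4.57 and 4.17 CPM (-1.01 ± 0.28, edgeR adjusted p = 0.0235), and the chemoreceptor *srw-100* from 136 and 137 CPM to 111 and 100.5 CPM (-0.37 ± 0.11, adjusted p = 0.0242). *Y8A9A.2*, *ZC178.2*, *Y2C2A.1*, *Y105C5A.9* and *ZK177.11* also rose, by 0.28 to 0.86 on the log2 scale. Their groups did not overlap either, but *Y105C5A.9* lost its call in 5 of 8 alternative fits, *ZC178.2* and *ZK177.11* in 4 each, all 3 under DESeq2 too. *F36A2.12* lost its call in 3 of the 8, and *F16H6.8*, *Y8A9A.2* and *srw-100* in 2 each. Without M+P+ replicate 2, 4 members were called.

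For 100 of the 300 members some CUT&RUN reads held a variant that tells the sperm (N2) from the oocyte (CB4856) genome. In the F2 these names mean the grandfather's and grandmother's genomes. Summed over these, the sperm genome held 57.7% and 54.8% of H3K27me3 allele reads in first-cross M+P+ and 53.8% and 50.3% in M+P-. All genes together gave 52.4% and 52.4% against 49.1% and 45.8%. In the second cross the members' shares were 57% and 55.6% in M+P+ and 50% and 52.2% in M+P-, and 52.9% and 57.95% in the F2. All genes together gave 50.3% and 51.7%, 46.6% and 48.8%, and 48.4% and 52.7% in the same order. In both crosses each M+P- library lay below each M+P+ library, for all genes as for the members, while the members' F2 shares lay on both sides of 55.6%. *ver-1*, a receptor tyrosine kinase of the VEGF receptor type, gave 8.57% to 10.7% of the members' H3K27me3 allele reads. Some shares were extreme, in part only in the second cross and the F2. *elk-2* and *Y73B3A.8* had a sperm share of 0% in all second-cross and F2 H3K27me3 libraries, against 67.6% to 89.7% and 44% to 53.1% in the first cross. *F55B11.6* had 89.5% to 100% in the H3K27me3 libraries of both crosses and the F2. The part of the variants or strains in these shares was not tested. The median member's share was 53.5% and 52.9% in M+P+ and 51.2% and 46.6% in M+P- of the first cross, for members with at least 10 reads.

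**Figure D4:**
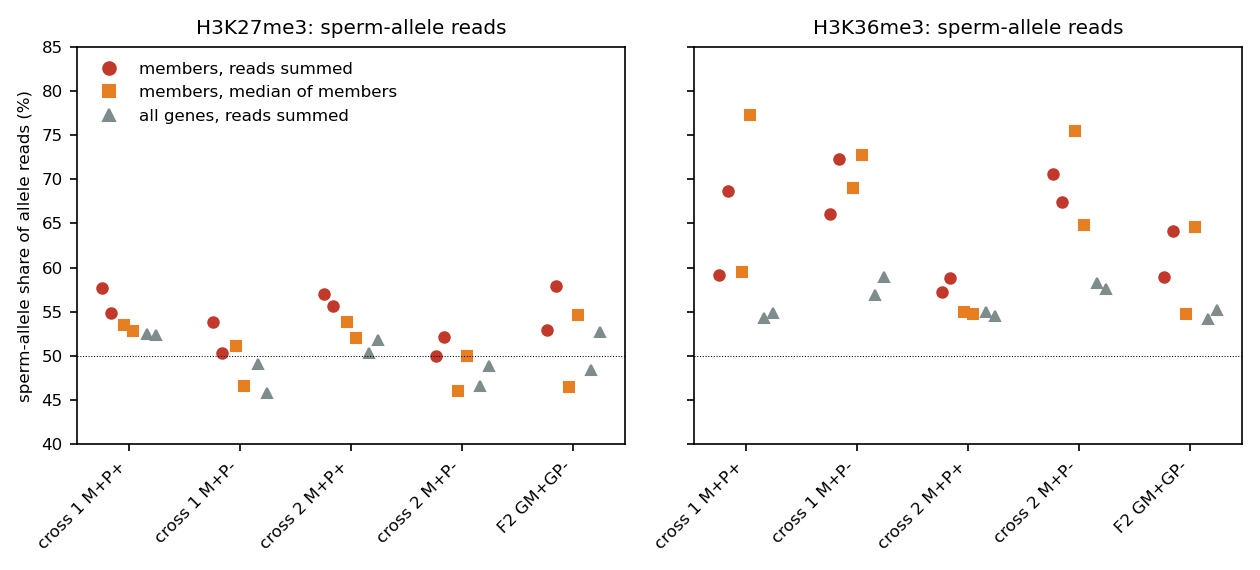
Share of allele-assigned CUT&RUN reads that came from the sperm genome (vertical axis, percent), by history and library, for the members with reads summed (red), the median over members with at least 10 reads (orange) and all genes with reads summed (grey). For H3K27me3 the members' summed share is 54.8% to 57.7% in M+P+ and 50% to 53.8% in M+P-. For H3K36me3 it is 57.2% to 68.7% in M+P+ and 66% to 72.3% in M+P-, where all genes have 54.3% to 55% and 56.9% to 59%.

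Gene by gene, 3 of 97 members tested had less sperm-genome H3K27me3 relative to the oocyte genome in first-cross M+P- (edgeR test of allele by history, adjusted p under 0.05) and none had more. Over 10772 genes 1.81% were lower and 0.0186% higher, 1.83% in all. The median log2 change of the sperm-to-oocyte ratio was -0.35 over members and -0.29 over all genes. *bli-6*, a cuticle collagen gene, had 22 sperm and 19 oocyte reads and 12 and 11 in the M+P+ libraries, and 3 and 28, and 6 and 28, in the M+P- libraries (-2.79 ± 0.72 SE, edgeR adjusted p = 0.0321). *Y53C10A.15* had 76 and 73, and 44 and 51, in M+P+ and 50 and 98, and 22 and 101, in M+P- (-1.44 ± 0.40, adjusted p = 0.048). *Y73F8A.23* had 85 and 54, and 120 and 79, in M+P+ and 59 and 75, and 100 and 164, in M+P- (-1.18 ± 0.32, edgeR adjusted p = 0.0433). In all 3 genes the sperm share was lower in both M+P- libraries. The calls were fragile: DESeq2 and TMM scaling of the allele columns each called 0, and leaving out M+P+ replicate 1, M+P+ replicate 2 or M+P- replicate 2 left 0, while leaving out M+P- replicate 1 gave 7.

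No member passed this test in the second cross (90 tested, 4 with an unadjusted p under 0.05, 0 by DESeq2) or in the F2 (95 tested, 4 with an unadjusted p under 0.05, 0 by DESeq2), where 0% of 11027 and of 10839 genes were called by edgeR. Median changes were -0.43 over members and -0.20 over all genes in the second cross, and -0.10 and -0.07 in the F2. *bli-6* again had the smallest p of the second cross, with 30 sperm and 25 oocyte reads and 6 and 8 in M+P+, and 6 and 27, and 0 and 20, in M+P- (-3.19 ± 1.32 SE, edgeR adjusted p = 0.967). The next smallest p-values, for *F44G4.5* (-2.03 ± 0.90) and *D1044.7* (-2.22 ± 1.01), had the same adjusted p. In the F2 *bli-6* had 5 and 40 in one library and 7 and 4 in the other, a sperm minority in the first and a majority in the second. Without F2 replicate 2 the F2 comparison had 4 called members, and without M+P- replicate 2 that of the second cross had 1.

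H3K36me3 allele reads over the members were few and leaned to the sperm genome. First-cross M+P+ replicate 2 had no allele read at 45 of the 100 members (30.1% of all genes), against 3 to 8 in the other 3 libraries of that cross. Reads were also missing at 32 members in second-cross M+P- replicate 1 (13.8% of all genes). In M+P+ replicate 1 of that cross they were missing at 17 (12.5%), and in F2 replicate 1 at 13 (5.43%). The members' summed sperm share was 59.2% and 68.7% in M+P+ and 66% and 72.3% in M+P- of the first cross, 57.2% and 58.8% against 70.6% and 67.4% in the second, and 59% and 64.1% in the F2. Without first-cross M+P+ replicate 2 the share of that group is 59.2%. All genes together gave 54.3% and 54.8% in M+P+ and 56.9% and 59% in M+P- of the first cross. In the second they gave 55% and 54.5% against 58.2% and 57.5%, and in the F2 54.2% and 55.2%. For all genes each M+P- library thus lay above each M+P+ library in both crosses. The members did so in the second cross only, since in the first M+P+ replicate 2 (68.7%) lay above M+P- replicate 1 (66%). No member was called by edgeR in any of the 3 tests (44, 33 and 33 tested, 0 with an unadjusted p under 0.05, 0 by DESeq2), while without first-cross M+P+ replicate 1 there were 2 calls and without its replicate 2 there were 0. For *ver-1*, the sperm genome had 63.6% and 80.2% of H3K36me3 allele reads in first-cross M+P+ and 75.6% and 86.2% in M+P-, and the groups overlapped (0.69 ± 0.49 SE, edgeR adjusted p = 0.998).

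The allele of origin of the members' RNA could hardly be followed. In hermaphrodite germlines all members together gave 45 to 68 allele reads per first-cross library, and *M199.2* alone had enough to test (15 sperm and 15 oocyte reads and 11 and 6 in M+P-, 6 and 14 and 9 and 13 in M+P+, log2 change 1.18 ± 0.77 SE, edgeR adjusted p = 0.843). Of the members called in total RNA, *C08F11.7* had 4 sperm and 0 oocyte reads in each M+P+ library and 8 and 0, and 6 and 0, in M+P-. All of its few RNA allele reads in first-cross hermaphrodites thus came from the sperm genome in both histories. Elsewhere oocyte-genome reads of this gene occurred. Its sperm share was 57.1% to 92.9% in M+P- males and 71.4% to 100% in M+P+ males. It was 80% and 75% in second-cross M+P- germlines and 0%, 100% and 50% in the F2. In males 9 and in L1 larvae 7 members were tested, 0 had an unadjusted p under 0.05, and 0 were called by edgeR or DESeq2. In the second cross no member had enough reads.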

How the data were processed

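Per the file headers, the files the authors deposited hold raw read counts of genes for RNA (poly(A)-selected, per the labels) and CUT&RUN, with counts of reads carrying the oocyte or the sperm variant, and a z-score (score) per gene and CUT&RUN library (formula not given in the sources used here). RPKM group values and variant numbers per gene, also deposited by the authors, were not used for results, apart from the remark on members without counts. Per the submitters' processing notes the tools included TopHat2 2.1.1, Bowtie2 2.3.5.1, HTSeq and DESeq2 1.22.2, and the genome build was ce10. Use of strand in counting is not given, so overlapping and near-identical genes have uncertain counts.

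The 300 members had the highest mean z-score over the *him-8* H3K27me3 libraries, after 6 of 20261 rows with repeated names were dropped. Members and gene lists were chosen with earlier results of these data known. Totals were tested with edgeR 4.0.16 (TMM, filterByExpr, quasi-likelihood test) on the compared groups only. Allele counts were tested as the interaction of allele and history with each library as a block and a shared library size, for genes with a mean of at least 10 reads per column. Adjusted p-values (Benjamini-Hochberg) cover all genes tested, and fold changes are log2 with SE. CPM is a gene's share of the library's gene counts times 1000000. The scripts were tested on simulated data. Alternatives were DESeq2 1.42.0, other scaling, no filter, a replicate block, leaving out each library, and members from 1 *him-8* library. Same-numbered F1 M+P+ and F2 RNA libraries deviated together (correlations 0.344, 0.409 and 0.154), a pairing read from the data, not the labels.

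The named members are drawn from the 6 members with the highest z-score, 3 on each side of the cut, the called members with the largest changes and no overlap between groups (or the 3 smallest p), and members called in 3 or more RNA comparisons. Others were named after their values were seen. The share of all genes without overlap between groups is not given, so statements on overlap are descriptions only. RefSeq (WBcel235) gave names, biotypes, chromosomes and neighbours only. Replicates are biological per the labels. Replicate libraries differed beyond sampling noise.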

Additional observations from a re-analysis of the deposited data

Results flagged for a closer look

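In the groups of 4 male germlines, 35 sets of values were checked for a library far from the other 3, and chance flags about 1 in 20. M+P+ replicate 3 was highest for members with RNA counts (171, others 121 to 124), members above 1 CPM (98, others 63 to 67), *ZC178.1* (12 CPM, others at most 0.145), *F16H6.9* (22.3 CPM, others 1.09 to 2.66), *ZC178.2* (7.81 CPM, others at most 0.344), *ZC247.1* (82.7 CPM, others 3.12 to 6.61) and *zmp-3* (5.86 CPM, others at most 0.29). This library also had 2814 CPM of muscle markers, and the part of somatic RNA in these values was not tested. M+P- replicate 1 was highest for *ZC247.1* (13.5 CPM, others 4.91 to 5.34), and M+P- replicate 4 was lowest for *pot-3* (12 CPM, others 15.1 to 15.6).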

How the results depend on the processing

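Of the alternative values for single named genes, 460 kept direction and side of the threshold, 77 lost a call, 11 gained one and none reversed. For the alternative fits no share called over all genes is given, so their counts of members have no background beside them. Calls of members, by comparison, moved by over 1.5 times as follows. DESeq2 gave 2 in males, 2 in L1 larvae and 0 in first-cross allele H3K27me3. Without the filter there were 1 in L1 larvae, 7 in the second-cross F1, 7 in the F2 and 1 in first-cross allele H3K27me3. TMM scaling gave 0 in first-cross allele H3K27me3, and all 6 libraries 0 in the second-cross F1. Members from the first *him-8* library alone gave 5 in the second-cross F1, 4 in the F2 and 0 in first-cross allele H3K27me3, and from the second library 1 in the F2. With the replicate block the counts were 16 in fathers, 6 in the second-cross F1, 7 in the F2, 26 (7 higher, 19 lower) in first-cross total H3K27me3, 1 in second-cross total H3K27me3 and 7 in first-cross allele H3K27me3. It moved no other count by over 1.5 times. Correlations of same-numbered deviations were 0.758 in first-cross H3K27me3, 0.178 in first-cross hermaphrodite RNA, 0.217 in second-cross H3K27me3, -0.039 in F2 H3K27me3, 0.4 and 0.429 in second-cross RNA, -0.026 to 0.692 in fathers, -0.214 to 0.838 in males and -0.098 to 0.234 in larvae.

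Leaving out 1 library gave 3 to 6 called members in fathers, 4 to 7 in first-cross hermaphrodites, 0 to 2 in males, 0 to 5 in the second-cross F1, 1 to 4 in the F2, 0 to 1 in total H3K27me3 of either cross, 4 to 15 in F2 total H3K27me3, 0 to 7 in first-cross, 0 to 1 in second-cross and 0 to 4 in F2 allele H3K27me3, and 0 to 2 in first-cross allele H3K36me3. It gave 0 in larvae and in the remaining allele tests. Where it left 1 library in a group, that library is assumed to vary like the other group. The cause of these moves was not tested. Allele counts for M+P- replicate 3 of the second cross were not analysed here, so that test was not run with all 6 libraries. Shallow *him-8* libraries limit which genes are members, and low counts limit the RNA and H3K36me3 allele tests.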
